A study of Homo sapiens with 20 samples.

Results

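The genes described here are 10 genes of methionine and one-carbon metabolism that were chosen by name: MAT1A, MAT2A, MAT2B, GNMT, PEMT, AHCY, BHMT, BHMT2, CBS and CTH. Their probes were found through the transcript accession that the array design gives for each probe. Of the 42405 probes on the array, 12 matched, with 2 probes each for MAT2A and MAT2B and 1 for each of the other genes. Of the 10 genes, 9 passed the filter on dim probes and were among the 22214 genes tested. BHMT did not pass it. The cells were HepaRG, an established human liver tumour line whose progenitor-like cells give rise to hepatocyte-like and biliary-like cells when they are kept at confluence. All conditions used this same line, in medium with serum, insulin and hydrocortisone, and 20 arrays were analysed, 4 for each of 5 conditions. D4 and D15 cells were taken at day 4 and day 15 without DMSO. D30 − DMSO cells were kept without DMSO until day 30, and D30 + DMSO cells received 2% DMSO from day 15 to day 30. D34 ± DMSO cells were D30 + DMSO cells from which DMSO had been withdrawn 4 days before collection.

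Methionine adenosyltransferases join methionine with ATP to give S-adenosylmethionine, the main methyl donor of the cell. MAT1A encodes the catalytic subunit used by adult hepatocytes, MAT2A the catalytic subunit of most other tissues, of fetal liver and of dividing liver cells, and MAT2B a regulatory subunit that binds the MAT2A product. GNMT spends S-adenosylmethionine on glycine and PEMT spends it on phosphatidylcholine, and AHCY then splits the S-adenosylhomocysteine that both reactions release. The resulting homocysteine is methylated again by BHMT, BHMT2 or the folate-dependent methionine synthase, or it is passed by CBS and CTH to cysteine, and the liver is the main site of most of these steps.

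The signal given below is the processed intensity of a probe, scaled so that the 75th percentile of every array equals 384. Before scaling, this percentile ranged from 283 to 526 over the arrays, and between 57.0% and 71.2% of the probes of an array were well above background. Replicates of a condition correlated at 0.955 to 0.992 over the genes tested. Of 8 hepatocyte markers, 7 were well above background on all 20 arrays, and HNF4A on 16. Of the markers of other cells, EPCAM, CFTR and PDGFRB were above background on no array. A level can be compared between conditions for 1 probe, but not between probes, so no gene's level is set against another gene's.

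MAT1A, GNMT, BHMT2 and CTH changed over the 5 conditions, and each was lowest at D4 and highest at D30 + DMSO. From the lowest to the highest condition the mean level differed 180-fold for GNMT, 37.2-fold for MAT1A, 7.39-fold for CTH and 7.01-fold for BHMT2. The GNMT value is not a firm size, since only 2 of 4 arrays at D4 were well above background, and with a background correction that offsets low signals (normexp) it was 33.0-fold, against 33.9-fold for MAT1A. These 4 of the 9 genes tested passed limma's F-test, with a Bonferroni-adjusted p under 0.001 and a range of means over 3-fold, as 5.37% of all genes did. The CTH call was lost without any 1 of D4 replicates 1, 3 and 4 and D30 + DMSO replicates 1, 2 and 3, with the methods' analysis of variance in place of limma and with no filter on dim probes, each of which left 3 genes. CBS had 1.70-fold between its means (Bonferroni-adjusted p = 0.0924), and MAT2A had 2.23-fold. MAT2B, PEMT and AHCY had 1.32-fold or less. The plot of levels by array shows these patterns gene by gene. The arrays measure RNA of the whole culture, so fewer cells of a type and less RNA per cell cannot be told apart.

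**Figure D1:**
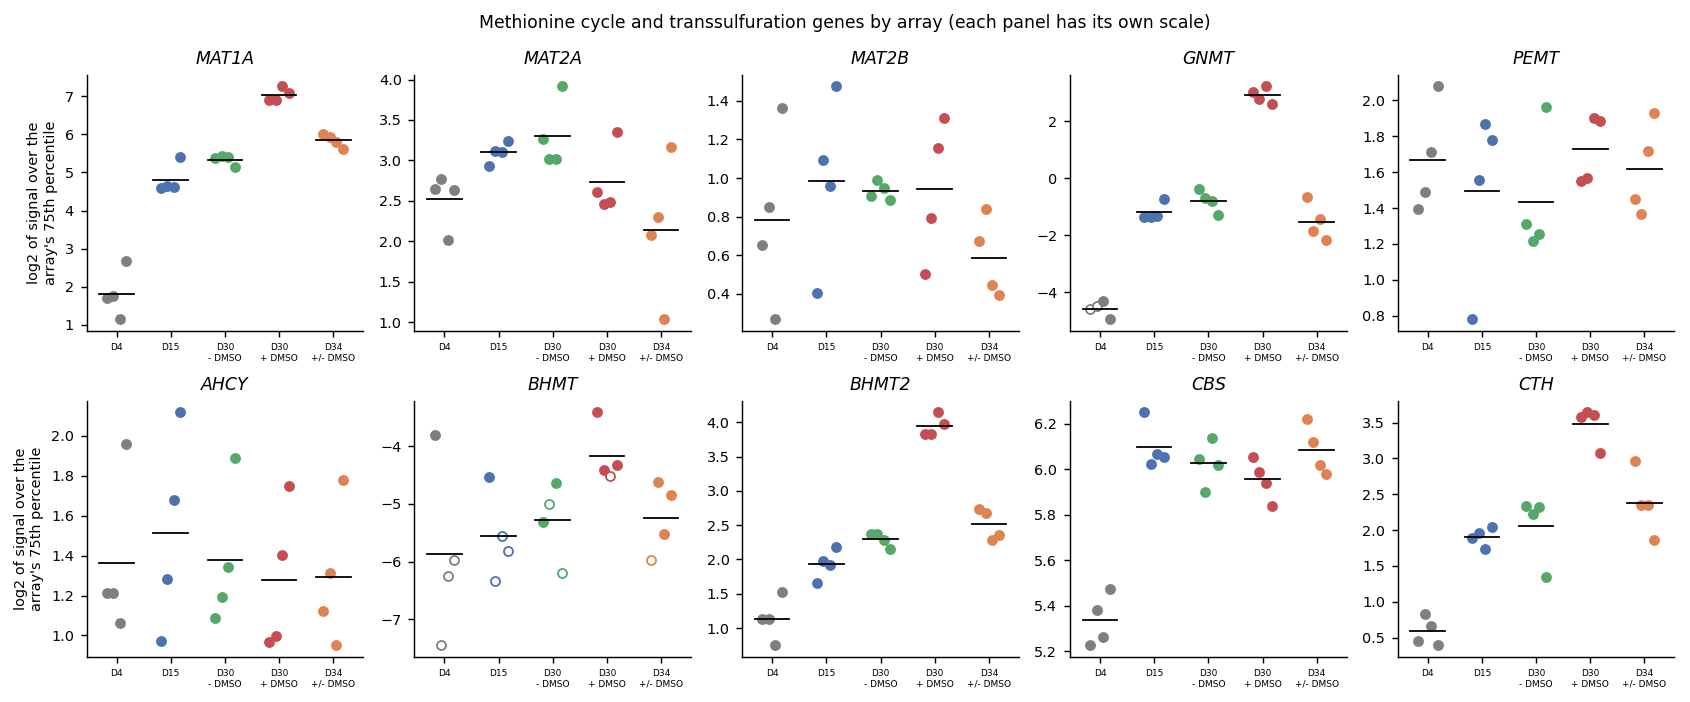
Levels of the 10 genes on each array, as log2 of the signal over the array's 75th percentile, with 1 point per array, a black line at the mean of each condition and replicates 1 to 4 from left to right. Open points are not well above background. GNMT, MAT1A, BHMT2 and CTH have their highest points at D30 + DMSO, whereas the points of MAT2B, PEMT and AHCY overlap between most conditions.

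The bases before the start of the genes that carry these patterns are shown because MAT1A and MAT2A encode the same activity and differed in their pattern, and because GNMT and CTH were high on the same arrays as MAT1A. The sequences are RefSeq promoter windows of build GRCh38.p14, 250 bases up to the base before the start, 5′ to 3′ on the strand of the gene. All 10 genes had a window, and 6 of them had 1 only. Capitals mark the letters of the TATA box (TATAAA), those of the CCAAT box and those of the GC box (GGGCGG), on either strand and with no overlap between them.
MAT1A, chr10:80289659-80289908, minus strand: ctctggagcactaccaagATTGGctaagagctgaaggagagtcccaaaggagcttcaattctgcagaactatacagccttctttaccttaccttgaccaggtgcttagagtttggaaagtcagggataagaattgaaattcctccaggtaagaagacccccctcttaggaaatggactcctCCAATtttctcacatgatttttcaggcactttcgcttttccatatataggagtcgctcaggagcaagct
MAT2A, chr2:85538918-85539167, plus strand: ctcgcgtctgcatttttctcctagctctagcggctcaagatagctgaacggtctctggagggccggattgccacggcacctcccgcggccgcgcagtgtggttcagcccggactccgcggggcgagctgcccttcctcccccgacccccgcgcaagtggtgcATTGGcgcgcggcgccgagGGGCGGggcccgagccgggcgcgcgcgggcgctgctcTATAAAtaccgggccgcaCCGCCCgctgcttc
GNMT, chr6:42960504-42960753, plus strand: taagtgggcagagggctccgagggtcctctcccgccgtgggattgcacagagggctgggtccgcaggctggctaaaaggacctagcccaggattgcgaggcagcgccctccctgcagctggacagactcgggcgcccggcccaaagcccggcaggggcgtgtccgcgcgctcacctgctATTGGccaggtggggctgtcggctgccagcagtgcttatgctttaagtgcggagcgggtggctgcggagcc
CTH, chr1:70411018-70411267, plus strand: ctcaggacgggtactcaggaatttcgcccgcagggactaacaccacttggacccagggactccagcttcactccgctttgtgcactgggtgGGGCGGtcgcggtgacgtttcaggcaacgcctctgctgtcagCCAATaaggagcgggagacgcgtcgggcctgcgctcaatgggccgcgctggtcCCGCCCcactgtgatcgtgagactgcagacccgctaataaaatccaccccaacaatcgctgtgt

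The windows of MAT1A and MAT2A differ in their content of CpG. MAT1A has 2 CpG in 250 bases and 44.8% G and C, and MAT2A has 34 CpG and 71.6% G and C. The median over 35114 windows of this length is 11, and 14.7% of them have fewer CpG than MAT1A and 93.2% fewer than MAT2A. GNMT has 18 CpG and CTH has 20, and 63.2% and 67.6% of the windows have fewer. BHMT2, lowest and highest in the same conditions as MAT1A, has 34 CpG, as many as MAT2A, and 81.6% G and C. TATAAA occurs in the MAT2A window, starting 32 bases before the start, and not in those of MAT1A, GNMT and CTH, while 11% of all windows hold it. Only these exact letters were counted, so variants such as the tatata near the end of the MAT1A window were not. CCAAT occurs in all 4 windows printed above and in 32% of all windows. Of these 4, GGGCGG occurs in MAT2A and CTH, and it occurs in 42.6% of all windows. No binding or methylation was measured here, and a match is a description of the letters only.

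MAT1A, the hepatocyte methionine adenosyltransferase, had signals of 1255, 1288, 856 and 2441 on the 4 arrays of D4. At D15 the signals were 9176, 9602, 9354 and 16208. At D30 − DMSO they were 16083, 16659.8, 16115 and 13429. The 4 arrays of D15 all lay above those of D4, and the fitted change was a log2 of 2.99 ± 0.24 (SE, n = 4 against 4, limma adjusted p = 3.24e-08), or 7.93-fold. The arrays of D15 and D30 − DMSO overlapped, since replicate 4 was the highest at D15 and the lowest at D30 − DMSO, and the log2 change of 0.53 ± 0.24 did not pass the test. At D30 + DMSO the signals were 45772, 46141, 58826 and 51791. They lay above every array of D30 − DMSO, with a log2 change of 1.70 ± 0.24 (limma adjusted p = 5.70e-05), or 3.25-fold. At D34 ± DMSO they were 24852, 23248, 21238 and 18913. Every one of these lay below the arrays of D30 + DMSO and above those of D30 − DMSO. The change on removal was a log2 of -1.20 ± 0.24 (limma adjusted p = 0.00132). It missed the threshold without D30 + DMSO replicate 3 (-1.12, limma adjusted p = 0.00644) and without D34 ± DMSO replicate 4 (-1.13, limma adjusted p = 0.00558). The difference from D30 − DMSO was 0.50 ± 0.24 and did not pass the test (limma adjusted p = 0.357).

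MAT2A, the methionine adenosyltransferase of other tissues and dividing cells, had signals of 2399, 2610.2, 1557 and 2389 at D4 on its brighter probe. At D15 they were 2936, 3332, 3305 and 3637, and at D30 − DMSO 3674, 3096, 3115 and 5799. The arrays of D15 lay above those of D4, but the log2 change of 0.58 ± 0.33 did not pass the test (limma adjusted p = 0.246). At D30 + DMSO the signals were 2340.4, 2116, 2139 and 3928, and at D34 ± DMSO they were 1617, 1891, 788 and 3431. Replicate 4 was the highest array in every condition from D15 onward, and the conditions from D30 − DMSO onward overlapped. DMSO addition gave a log2 change of -0.58 ± 0.33 (limma adjusted p = 0.282), and its removal a further -0.58 ± 0.33 (limma adjusted p = 0.259). D34 ± DMSO against D30 − DMSO gave -1.16 ± 0.33 (limma adjusted p = 0.0553), a larger difference than in the other comparisons of this gene that still missed the threshold. The second MAT2A probe was not called in any comparison either, with a log2 change of -0.08 ± 0.37 on DMSO addition and -0.59 ± 0.37 for D34 ± DMSO against D30 − DMSO. MAT2B, whose product binds that of MAT2A, had log2 changes between -0.35 and 0.20 in the 5 comparisons on its brighter probe, whose signal ranged from 463 to 1067 over all arrays. The second MAT2B probe was not called in any comparison either, with -0.41 ± 0.22 for D34 ± DMSO against D30 − DMSO.

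The balance of MAT1A and MAT2A was taken per array as log2 MAT1A minus log2 MAT2A and set to 0 at the mean of D4, so that only its change is read. It was -0.24, -0.32, -0.17 and 0.73 on the arrays of D4, and 2.34, 2.22, 2.20 and 2.85 at D15. The arrays of D15 all lay above those of D4, by 2.40 ± 0.29 in the mean (SE, 5.29-fold, exact permutation test, two-sided, p = 0.0286, 0.0476 adjusted over the 5 comparisons). At D30 − DMSO it was 2.83, 3.12, 3.07 and 1.91, which overlapped with D15 (exact permutation p = 0.429). At D30 + DMSO it was 4.99, 5.14, 5.48 and 4.42, above every array of D4, D15 and D30 − DMSO. The change on DMSO addition was 2.27 ± 0.36, or 4.84-fold (exact permutation p = 0.0286, adjusted 0.0476). At D34 ± DMSO it was 4.64, 4.32, 5.45 and 3.16. These arrays overlapped with D30 + DMSO and the mean was lower by 0.62 ± 0.52 on the log2 scale (exact permutation p = 0.286). They lay above every array of D30 − DMSO, by 1.66 ± 0.55, or 3.16-fold (exact permutation p = 0.0286, adjusted 0.0476). With the second MAT2A probe this last difference was 1.09 and did not pass the test (exact permutation p = 0.143). The smallest p that 4 arrays against 4 allow is 0.0286.

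**Figure D2:**
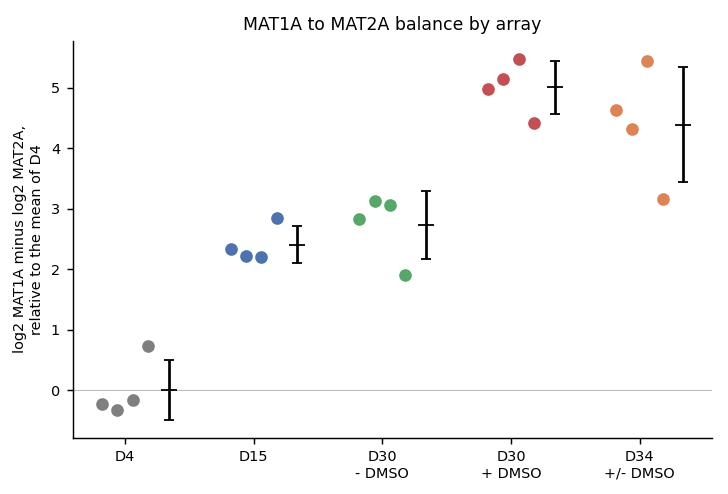
Balance of MAT1A and MAT2A on each array, as log2 MAT1A minus log2 MAT2A relative to the mean of D4, with 1 point per array and the mean ± SD beside the points of each condition. The means are 0 at D4, 2.40 at D15, 2.73 at D30 − DMSO, 5.01 at D30 + DMSO and 4.39 at D34 ± DMSO.

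GNMT, which methylates glycine and so uses up S-adenosylmethionine in hepatocytes, was dim at D4. There its signals were 16.0, 17.1, 19.5 and 12.4, and 2 of these 4 arrays were well above background. At D15 they were 147, 148, 152 and 230, and at D30 − DMSO 293, 235, 223 and 155. The arrays of D15 lay above those of D4, with a fitted log2 change of 3.37 ± 0.27 (limma adjusted p = 3.09e-08). Its size rests on a dim D4 signal, and normexp gave 1.48, also called. At D30 + DMSO the signals were 3095, 2656, 3604 and 2352. All 4 lay far above D30 − DMSO, with a log2 change of 3.71 ± 0.27 (limma adjusted p = 3.90e-08), or 13.1-fold. At D34 ± DMSO they were 242, 106.9, 142 and 84.4, a log2 change of -4.44 ± 0.27 from D30 + DMSO (limma adjusted p = 5.66e-09), or 21.8-fold lower. Over alternative processing and models the log2 change was 3.26 to 3.71 on addition and -4.47 to -3.79 on removal. The arrays of D34 ± DMSO overlapped with both D15 and D30 − DMSO, and the log2 difference from D30 − DMSO was -0.74 ± 0.27 (limma adjusted p = 0.167). An annotated readthrough transcript of CNPY3 and GNMT shares the GNMT sequence, so the probe does not separate them.

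PEMT, the liver enzyme that makes phosphatidylcholine by methylation, had signals from 660 to 1620.4 over all arrays. No comparison passed the test, and the log2 changes ranged from -0.17 to 0.29. AHCY, which removes S-adenosylhomocysteine, had signals from 741 to 1664 and log2 changes from -0.14 to 0.15. The confidence interval for DMSO addition was -0.20 to 0.78 for PEMT and -0.67 to 0.47 for AHCY (95%, limma), so a 2-fold change lies outside both intervals.

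BHMT2, which returns homocysteine to methionine with S-methylmethionine as donor, had signals of 838, 844, 645 and 1103 at D4 and of 1216, 1514, 1449.7 and 1742 at D15. The arrays of D15 lay above those of D4 with a log2 difference of 0.80 ± 0.16 (limma adjusted p = 0.00103), below the 2-fold limit. At D30 − DMSO the signals were 1983, 1986, 1874 and 1714, and at D30 + DMSO they were 5428, 5448, 6781 and 6064. The DMSO arrays stood apart from all others, with a log2 change of 1.65 ± 0.16 (limma adjusted p = 1.00e-06), or 3.13-fold. At D34 ± DMSO they were 2566, 2446, 1859 and 1958, a log2 change of -1.43 ± 0.16 from D30 + DMSO (limma adjusted p = 3.22e-06). These arrays overlapped with D30 − DMSO, from which they differed by 0.21 ± 0.16.

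BHMT, the betaine-dependent enzyme and the neighbour of BHMT2 in the genome, was dim in every condition. It was well above background on 1 array each of D4 and D15, 2 of D30 − DMSO and 3 each of D30 + DMSO and D34 ± DMSO. Its signals were 35.9, 17.9, 16.7 and 19.0 at D30 + DMSO, against 9.65, 12.0, 15.4 and 5.21 at D30 − DMSO. The arrays of D30 + DMSO lay above those of D30 − DMSO, but D4 replicate 1, without DMSO, had 27.3 and lay above 3 of them. The gene was not tested because no condition had it above background on all 4 arrays.

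CBS, which commits homocysteine to transsulfuration, had signals of 14361, 16002, 14740.2 and 17028 at D4 and of 29169, 24904, 25739 and 25508 at D15. The arrays did not overlap, and the log2 difference was 0.76 ± 0.11 (limma adjusted p = 2.43e-05), or 1.70-fold and so below the 2-fold limit. From D15 onward the signal stayed between 21965 and 29169, and the log2 change was -0.07 ± 0.11 on DMSO addition and 0.13 ± 0.11 on removal. The probe cannot be told from an annotated near-identical copy of CBS. CTH, the next enzyme of the pathway, had signals of 527, 684, 610.0 and 504 at D4 and of 1421, 1493, 1280.0 and 1577 at D15. It rose by a log2 of 1.32 ± 0.23 (limma adjusted p = 2.48e-04), with no overlap. At D30 − DMSO the signals were 1929.7, 1788, 1913 and 979, with replicate 4 far below the others. At D30 + DMSO they were 4560.4, 4782, 4666 and 3246, again with replicate 4 the lowest, and the log2 change was 1.42 ± 0.23 (limma adjusted p = 1.98e-04), or 2.67-fold. The methods' t-test did not call it (adjusted p = 0.0188). At D34 ± DMSO they were 2990.3, 1951, 1954 and 1398, all below D30 + DMSO, with a log2 change of -1.09 ± 0.23 (limma adjusted p = 0.00178). This call was lost without any 1 of D30 + DMSO replicates 1, 2 and 3 and D34 ± DMSO replicates 2, 3 and 4, where the log2 change was between -1.08 and -0.92 and the limma adjusted p between 0.00535 and 0.00820. It was also lost with normexp (log2 change -0.96), with only the arrays compared in the fit (limma adjusted p = 0.0159) and with the methods' t-test (adjusted p = 0.0418).

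BHMT2 begins next to DMGDH, the mitochondrial enzyme that breaks down the dimethylglycine left by BHMT. The 2 genes point away from each other, and their starts are separated by 92 bases. These are shown on the BHMT2 strand, with 2 matches to GGGCGG in capitals.
BHMT2 to DMGDH, chr5:79069675-79069766, plus strand: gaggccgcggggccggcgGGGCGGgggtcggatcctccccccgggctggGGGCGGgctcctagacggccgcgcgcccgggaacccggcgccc
DMGDH was compared with BHMT2 after its values had been seen. Its log2 change was 2.48 ± 0.23 at D15 against D4 (limma adjusted p = 1.89e-07), where that of BHMT2 was 0.80. It was 1.12 ± 0.23 on DMSO addition (limma adjusted p = 0.00178) and -1.65 ± 0.23 on removal (limma adjusted p = 3.50e-05), so limma called both genes in the same direction in these 2 comparisons. The 2 comparisons share the D30 + DMSO arrays, and 1.18% of all genes were called higher, then lower, in them. PIPOX, ALDH1L1 and CDO1, described below, were also among these. On removal the methods' t-test called none of 9 genes of choline, betaine and glycine breakdown, to which DMGDH belongs.

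Between D4 and D15, which asks what changes before any DMSO is added, 3 of the 9 genes tested rose (GNMT, MAT1A and CTH) and none fell. Over all genes 5.72% were higher, 3.83% were lower and 9.55% were called in either direction, at a Benjamini-Hochberg adjusted p below 0.005 with more than 2-fold. The arrays of the 2 conditions did not overlap for 6 of the 9 genes, against 24.2% of all genes. The median log2 change was 0.76 for the 9 genes and 0.02 for all genes. In the same comparison all 8 hepatocyte markers rose, with a median log2 change of 2.78, and all 8 proliferation markers fell, with a median of -2.92. Of the mesenchymal markers, 2 of 5 tested fell, and of 5 biliary and progenitor markers SPP1 rose, by 1.68. The methods' t-test called 6 of the hepatocyte markers, 5 of the proliferation markers and 0 of the other markers. Their part in the change of the 3 genes was not tested. Between D15 and D30 − DMSO limma called none of the 9 genes, and 0.0135% of all genes, which is 3 genes. At an unadjusted p below 0.05 there were 2 (MAT1A and BHMT2), the methods' t-test called 0, and all 9 genes overlapped, against 2.23% of all genes that did not. In that comparison the largest values were 0.53 for MAT1A, 0.41 for GNMT and 0.36 for BHMT2 on the log2 scale.

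On DMSO addition, D30 + DMSO against D30 − DMSO, 4 of the 9 genes rose: GNMT, MAT1A, BHMT2 and CTH. Over all genes 1.74% rose, 4.23% fell and 5.97% were called in either direction. The arrays of the 2 conditions did not overlap for 4 of the 9 genes, the same 4 that were called, against 24.5% of all genes. The 5 others had log2 changes from -0.58 for MAT2A to 0.29 for PEMT, and no gene of the 9 fell. Of the 8 hepatocyte markers none was called in this comparison by limma or by the methods' t-test and 4 had an unadjusted p below 0.05, with a median log2 change of 0.49. Their summed level, relative to the mean of D30 − DMSO, was 0.970 to 1.02 at D30 − DMSO and 1.1 to 1.88 at D30 + DMSO. Of the biliary and progenitor markers, SOX9 rose by 1.30 and SPP1 fell by 1.79 on the log2 scale (neither called by the methods' t-test), and none of the 8 proliferation markers was called by either test, with 2 at an unadjusted p below 0.05. Neither test called any of 5 mesenchymal markers, whose median log2 change was -0.58. COL1A1 (-1.15, no overlap) and COL3A1, dim at D30 + DMSO, had an unadjusted p below 0.05. The part of these marker changes in the rise of the 4 genes was not tested. On slides that held both conditions, the log2 change ranged from 3.29 to 4.23 for GNMT, from 1.51 to 2.04 for MAT1A, from 1.46 to 1.90 for BHMT2 and from 1.28 to 1.99 for CTH, over 2 slides.

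On DMSO removal, D34 ± DMSO against D30 + DMSO, 4 of the 9 genes fell, and they were GNMT, BHMT2, MAT1A and CTH again. Over all genes 1.98% fell, 5.12% rose and 7.10% were called in either direction. The arrays of the 2 conditions did not overlap for 4 of the 9 genes, the same 4 that were called, against 22.9% of all genes. This comparison and that of DMSO addition share the D30 + DMSO arrays, so a high value there counts in both, and 1.18% of all genes were higher in the first and lower in the second. On 2 slides that held both conditions, the log2 change ranged from -5.11 to -3.95 for GNMT, from -1.55 to -1.0 for MAT1A, from -1.71 to -1.32 for BHMT2 and from -1.48 to -0.95 for CTH. All 8 proliferation markers rose on removal, with a median log2 change of 3.04, and the methods' t-test called 1 of them. Their summed level, relative to D30 − DMSO, was 0.431 to 0.980 at D30 + DMSO and 4.5 to 10.6 at D34 ± DMSO, against 4.98 to 7.70 at D4. Of the 8 hepatocyte markers none was called on removal by either test and 3 had an unadjusted p below 0.05, with a summed level of 0.932 to 1.17 at D34 ± DMSO. Of 5 biliary and progenitor markers tested, SOX9 fell by 2.07 (limma adjusted p = 1.16e-05) and SPP1 rose by 2.25 (limma adjusted p = 2.36e-06) on the log2 scale, and the methods' t-test called neither. Of 5 mesenchymal markers none was called by either test and 3 had an unadjusted p below 0.05, with log2 changes of 1.42 for COL1A1, 1.19 for VIM and 0.89 for ACTA2, whose arrays did not overlap. The part of these marker changes in the fall of the 4 genes was not tested.

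D34 ± DMSO against D30 − DMSO sets cells that had received DMSO and lost it beside cells that never received it, and limma called none of the 9 genes, against 1.51% of all genes (1.32% higher and 0.189% lower). At an unadjusted p below 0.05 there were 2 (MAT2A and GNMT), and the methods' t-test called 0. The arrays did not overlap for 2 of the 9, MAT1A and MAT2B, against 11.7% of all genes. The values farthest from 0 were -1.16 for MAT2A, -0.74 for GNMT and 0.50 for MAT1A on the log2 scale. For GNMT the 95% interval was -1.31 to -0.16, and for BHMT2 it was -0.13 to 0.55. In the same comparison 5 of the 8 proliferation markers were higher at D34 ± DMSO by limma and 0 by the methods' t-test, and all 8 had an unadjusted p below 0.05. Neither test called any of the 8 hepatocyte, 5 biliary and progenitor and 5 mesenchymal markers. Of these, only SOX9 (log2 change -0.77) had an unadjusted p below 0.05. The plot of fitted changes sets the 5 comparisons side by side.

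**Figure D3:**
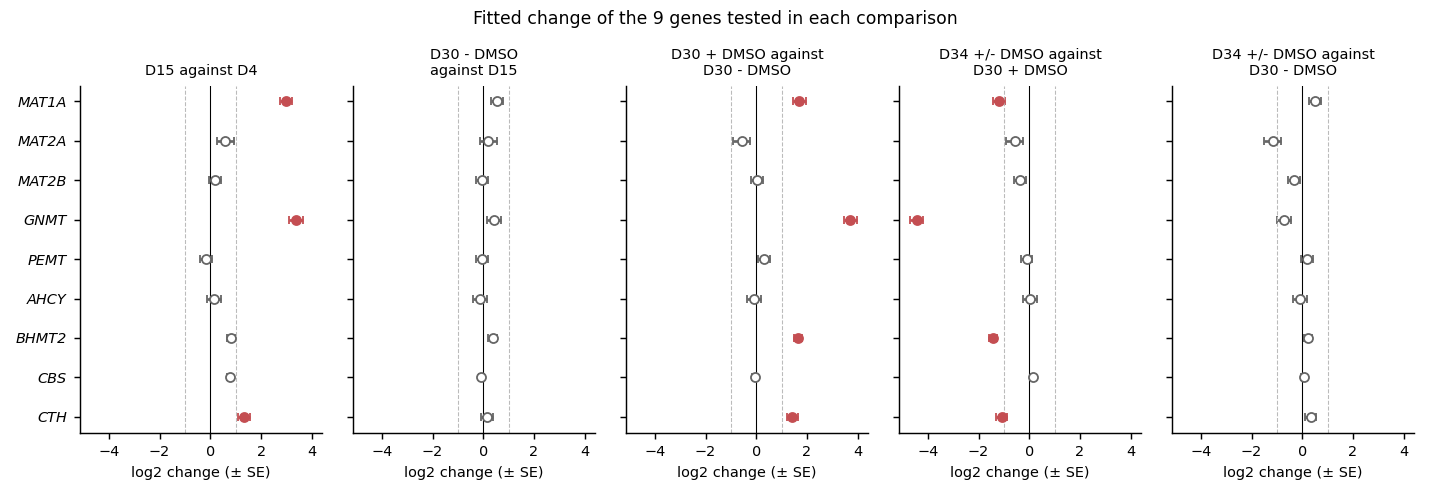
Fitted log2 change (± SE) of the 9 genes tested in each of 5 comparisons, from limma. Filled red points passed the adjusted p of 0.005 and the 2-fold limit (dashed lines). 3 genes are filled at D15 against D4, 4 on DMSO addition and 4 on DMSO removal.

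The order of the levels over the conditions was D4, D15, D30 − DMSO, D34 ± DMSO and D30 + DMSO for MAT1A, BHMT2 and CTH, from lowest to highest. For CTH and BHMT2 the neighbours from D15 to D34 ± DMSO overlapped and did not differ beyond the test, whereas D34 ± DMSO and D30 + DMSO did. For MAT1A the arrays of D30 − DMSO and D34 ± DMSO did not overlap, although the difference missed the threshold. For GNMT the order was D4, D34 ± DMSO, D15, D30 − DMSO and D30 + DMSO, with a log2 step of 3.05 from D4 to D34 ± DMSO (limma adjusted p = 9.25e-08) and of 3.71 at the top. The first of these steps rests on the dim D4 signal and was 1.26 with normexp. CBS was lowest at D4, and its other 4 conditions overlapped with their neighbours. Neighbours in the order of MAT2A, MAT2B, PEMT and AHCY overlapped throughout. As a description over the 20 arrays, which share conditions and slides, Pearson's r was 0.95 for GNMT with CTH, 0.94 for GNMT with BHMT2 and 0.90 for GNMT with MAT1A, and 0.07 for MAT1A with MAT2A. Of all genes tested, those with a pattern most like MAT1A were APOC3 (r = 0.99), AQP9 (0.99), CYP2C19 (0.99), MAP7 (0.99) and AMBP (0.99). Those most like MAT2A were ARRDC2 (r = 0.87), SNHG11 (0.85), KDM7A-DT (0.85), AXIN1 (0.85) and CRTC3 (0.84), all over the same 20 arrays.

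The other genes around these steps were taken from a list of 68 genes, of which 65 were tested. At D15 against D4, 14 rose and 1 fell, beside 5.72% and 3.83% of all genes, and the median log2 change of the list was 0.23 beside 0.02 for all genes. The methods' t-test called 9 of these 65. Of 9 genes that break down choline, betaine and glycine, 5 rose, among them PIPOX, which oxidises sarcosine, the product of GNMT, by 2.51 on the log2 scale. In this group DMGDH rose by 2.48 and GLDC, the decarboxylase of the glycine cleavage system, by 2.39. Of 19 tested genes of the folate cycle, 3 rose and 1 fell. ALDH1L1, which oxidises formyl-tetrahydrofolate, rose by 2.20, and the folate receptor FOLR1 rose by 2.38. The gene that fell was TYMS, which makes thymidylate in dividing cells. INMT, an N-methyltransferase for indoleamines, rose by 1.92. Limma and the methods' t-test called none of 6 genes of phosphatidylcholine synthesis from choline (0 at an unadjusted p below 0.05) and none of 11 genes of polyamines, methionine salvage and adenosine (5 at an unadjusted p below 0.05). Between D15 and D30 − DMSO neither test called any of the 65, and 0 had an unadjusted p below 0.05.

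DMSO addition raised 7 of the 65 and lowered 3, beside 1.74% and 4.23% of all genes, with a median log2 change of 0.11 beside 0.03 for all genes. The methods' t-test called 4. CDO1, which oxidises cysteine towards taurine, rose by 1.70, ALDH1L1 by 1.60 and PIPOX by 1.56, and the folate transporter SLC46A1 rose by 1.38. INMT fell by 1.55 and FOLR1 also fell by 1.55. At D34 ± DMSO against D30 + DMSO, 4 were higher and 9 lower, beside 5.12% and 1.98% of all genes. The median was -0.08 beside -0.04 for all genes. The methods' t-test called 3. TYMS rose by 2.36, on the arrays where the proliferation markers were also higher. ALDH1L1 fell by 1.83, DMGDH by 1.65, GLDC by 1.5, PIPOX by 1.43 and CDO1 by 1.36. Of 10 genes of cysteine, taurine, sulfide and glutathione, 4 fell on removal, and 2 rose on addition. D34 ± DMSO against D30 − DMSO had 1 higher and 2 lower by limma and 0 by the methods' t-test, beside 1.32% and 0.189% of all genes by limma, with log2 differences of 1.58 for TYMS, -2.06 for INMT and -1.52 for FOLR1. MTR, the folate-dependent methionine synthase and named for its role, was called in no comparison, with a log2 change of 0.04 on DMSO addition and 0.11 on removal.

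**Figure D4:**
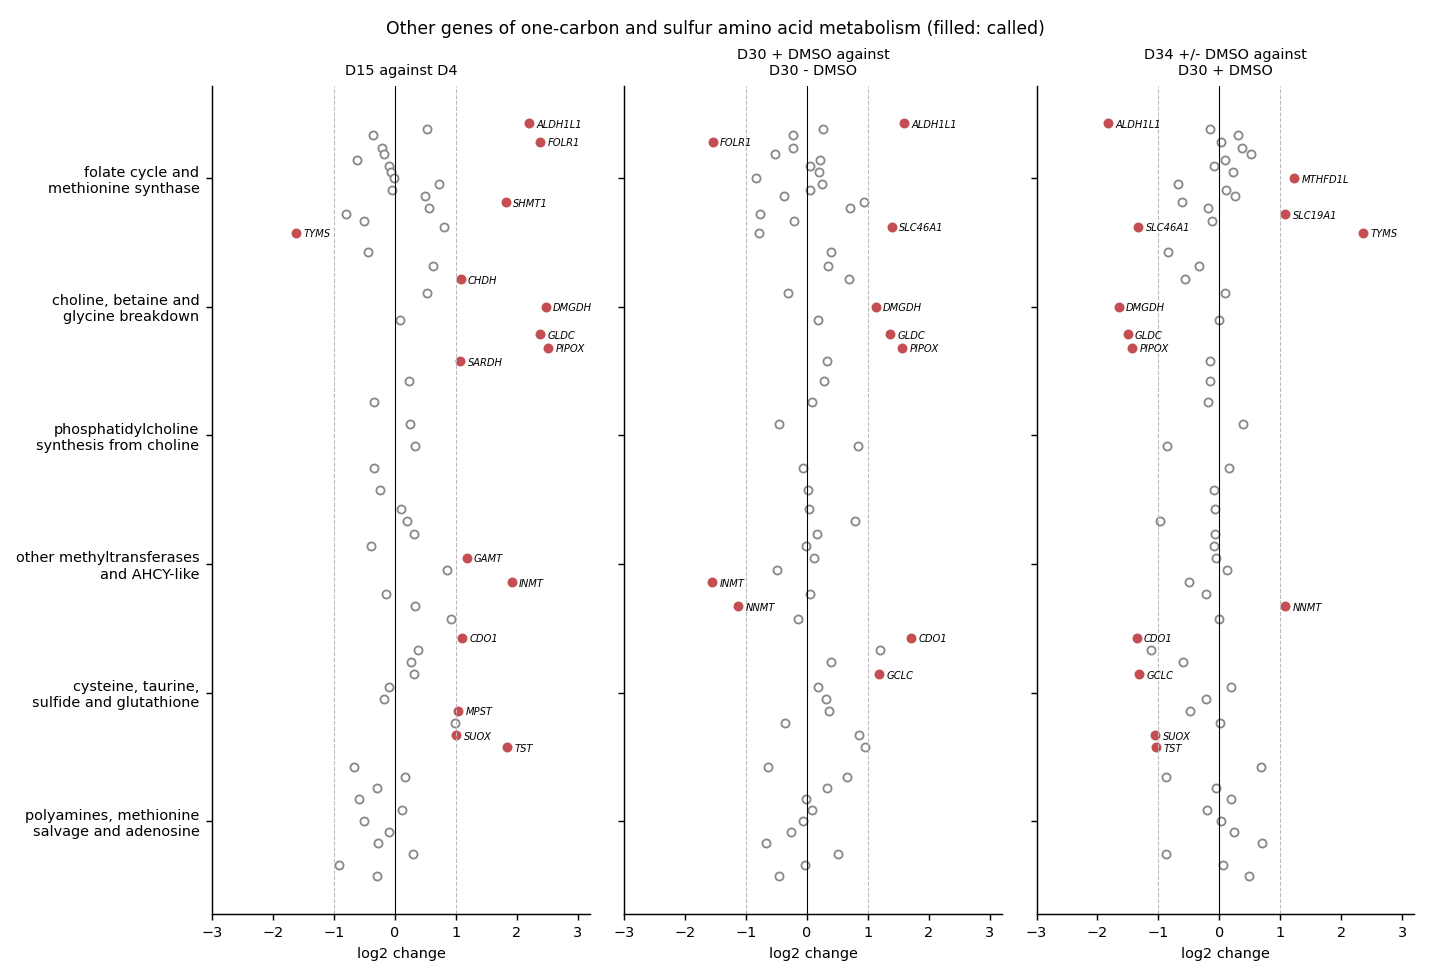
Fitted log2 change of 65 other genes of one-carbon and sulfur amino acid metabolism, grouped by role, in 3 comparisons, with 1 point per gene. Filled red points passed the adjusted p of 0.005 and the 2-fold limit (dashed lines) and are named. TYMS is filled to the left at D15 against D4 and to the right on DMSO removal, and PIPOX, ALDH1L1 and DMGDH are filled to the right in the first 2 panels and to the left in the last one.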

How the data were processed

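RNA of HepaRG cells was hybridised by the authors to 1-colour Agilent arrays, 4 for each of 5 conditions, from independent experiments per the design text of the series. The authors deposited Feature Extraction output for each array (version 10.7.1.1 per the file headers, 10.7.3.1 per the submitters' notes), with the processed signal as an intensity corrected for background within the array, and a series matrix whose values are on a log2 scale against a baseline. Spots of a probe were averaged, leaving out spots flagged as outliers, which left at most 147 probes of an array without a value. Each array was divided by its 75th percentile, values under a floor of 1 were raised to it, and log2 was taken. Probes that Feature Extraction called well above background on each of the 4 arrays of a condition were kept, 26531 of 42405. RefSeq accessions named 24826 probes, and the brightest probe of a gene was used. limma 3.58.1 in R 4.3.3 fitted all 20 arrays in 1 model of 5 condition means. Pairs of conditions were called at a Benjamini-Hochberg adjusted p below 0.005 with more than 2-fold, and all conditions at a Bonferroni-adjusted p below 0.001 with more than 3-fold, the thresholds of the study's methods. The balance was tested with exact permutation tests. The fit was tested on simulated data. The number of arrays sets the precision. The members and all gene lists were chosen with earlier results of these data known. The 10 genes are named throughout, and of the other pathway genes the called ones, at most the 6 with the largest change in a comparison, except DMGDH on addition, TYMS at D15 against D4 and MTR, which were picked after their values were seen or for their role. A pathway gene and a marker of the lists are not reported here. Alternatives covered normalization, background correction, the deposited matrix, filters, probes, floor, slide, replicate number, threshold, test and each array left out.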

Additional observations from a re-analysis of the deposited data

Results flagged for a closer look

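In 12 of 65 groups of 4 arrays, 1 array stood apart from the other 3. The measure is the gap to the nearest array divided by the range of the group, compared with Dixon's limit for 4 values, and chance alone flags about 1 in 20 groups. Replicate 4 of each condition lies on 1 slide of the second scan session, which also holds replicate 3 of 2 conditions (D15 and D30 + DMSO), and 10 of the 12 flags fall on it. It was the highest array for MAT1A at D15 (0.920), GNMT at D15 (0.934), PEMT at D30 − DMSO (0.870), AHCY at D4 (0.834) and the MAT1A to MAT2A balance at D4 (0.850). For MAT2A at D30 + DMSO it was the highest on both probes (0.837 on the brighter and 0.894 on the other). It was the lowest array for CTH at D30 − DMSO (0.887) and at D30 + DMSO (0.877), and for MAT1A at D30 − DMSO (0.836). The other 2 flags were replicate 1 as the highest for BHMT at D30 + DMSO (0.830), where the signal was dim, and replicate 2 as the highest for the second MAT2B probe at D30 − DMSO (0.842). The part of the slide in these values was not tested, and the changes within slides stand beside the comparisons of DMSO addition and removal above.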

How the results depend on the processing

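No called result changed direction under any alternative run. Of 895 repeated values of single genes, 883 stayed on their side of the threshold and 12 were weaker, all of them CTH or MAT1A. On DMSO removal, CTH was lost with normexp background correction (log2 change -0.96), with only the arrays compared in the fit (adjusted p = 0.0159), with the methods' t-test (adjusted p = 0.0418) and without any 1 of the 6 arrays named above. MAT1A was lost on removal without D30 + DMSO replicate 3 (log2 change -1.12, limma adjusted p = 0.00644) or D34 ± DMSO replicate 4 (-1.13, 0.00558). Leaving out each array in turn gave 2 to 4 genes called on removal, 4 on addition, 3 for D15 against D4 and 3 to 4 over the conditions. Over the conditions CTH was the gene lost, and on removal CTH was lost alone or together with MAT1A. CTH on addition was lost with the methods' t-test (adjusted p = 0.0188). The balance of D34 ± DMSO against D30 − DMSO fell to 1.09 with the second MAT2A probe (exact permutation p = 0.143). With normexp, the genes called higher and lower over the array were 757 and 575 for D15 against D4 (main 1271 and 851), 252 and 444 on addition (386 and 940) and 628 and 259 on removal (1137 and 440). With the methods' t-test they were 647 and 410, 175 and 359, and 332 and 133, with 11 higher and 0 lower for D34 ± DMSO against D30 − DMSO (main 293 and 42) and 0 for D30 − DMSO against D15 (main 3). With the stricter filter on all 20 arrays GNMT was not tested. The labels do not say whether replicate numbers pair arrays, and the main fit assumed no pairing. Deviations from the condition means correlated above 0.1 for 27 of 40 same-number pairs (median 0.27, lowest -0.33). Of pairs with different numbers, 43 of 120 did so (median -0.17). Of 20 arrays, 10 correlated best with their own number. Arrays of replicate 4 also share 1 slide, and the parts of number and slide were not separated. With the replicate block, 3 genes were called for D15 against D4 and 4 each on DMSO addition and removal, as without it. Arrays of 1 slide deviated together (44 of 44 pairs above 0.1), and slide as a block also left these counts at 3, 4 and 4.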
